A study of Mus musculus with 8 samples.

Results

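The S100 family comprises small calcium-binding proteins, and 8 of its genes (S100a1, S100a4, S100a6, S100a8, S100a9, S100a10, S100a11 and S100a13) were followed here across all arrays of the series. Members were taken as every probe set that the platform annotation assigns to one of these genes and to no other gene. This gave 9 probe sets for 7 genes, out of 22626 probe sets tested. The only probe set listing S100a11 also lists 2 other genes, S100a11-ps and Gm12854, so S100a11 was not analysed here. S100a1 and S100a10 had 2 probe sets each, and the brighter one, by its mean over the 8 arrays, stands for the gene unless stated otherwise.

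The series measured RNA of CD4-CD8- (double negative) cells sorted from the thymus (thymocytes) or from the spleen (thymus emigrants) of female C57BL/6 mice 6 to 8 weeks old, by Affymetrix expression array. Mice had been injected intraperitoneally with TCDD (2,3,7,8-tetrachlorodibenzo-p-dioxin, a dioxin and strong ligand of AhR, the aryl hydrocarbon receptor) at 10 µg/kg in corn oil, or with corn oil alone. FITC, a fluorescent dye that marks thymus cells so that those reaching the spleen can be recognised, was given after 5 days, and cells were sorted 24 h later. Each of the 4 groups (thymocytes oil, thymocytes TCDD, emigrants oil, emigrants TCDD) had 2 arrays, and all groups carried the FITC label. The design text describes the sorted cells as FITC-positive, whereas the sample labels name only the absence of CD4 and CD8. The emigrant array titled oil 1 has a Treatment field that names TCDD, the field of emigrants oil 2 reads Dioxane 2, and the groups follow the titles. Whether the arrays of one group stand for separate animals is not stated in the labels. The p-values therefore cover only the variation among these 8 samples, and that variation may be technical.

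S100 proteins form dimers, and most change shape on binding calcium and then bind other proteins. S100a8 and S100a9 pair to form calprotectin, an abundant cytosolic protein of neutrophils and monocytes that is released in inflammation and acts on the receptors Tlr4 and Ager. The other members are found in many cells, lymphocytes among them. S100a10, which has lost calcium binding, joins annexin A2 and the giant scaffold protein Ahnak at the plasma membrane. S100a4 binds non-muscle myosin and is linked to cell motility, S100a6 binds the protein encoded by Cacybp, S100a1 is best known from heart muscle, and S100a13 takes part in release of proteins that lack a signal peptide. In the RefSeq gene order, S100a8 is next to S100a9, S100a1 next to S100a13, and S100a5 lies between S100a4 and S100a6.

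The RefSeq promoter table (GRCm38.p6) lacked S100a10, so no motif was searched upstream of that gene. The table held the other 7 of the 8 genes, all on mouse chromosome 3. The 250 bases upstream of the start are shown for 4 of them, S100a8 and S100a9 because their levels moved together across the arrays, and S100a4 and S100a6 because both were higher in the emigrant arrays while S100a5, which lies between them, differed little. Each is written 5′ to 3′ on the gene's strand, and capitals mark TATAAA, the box often found near start sites, and TTNNGNAA, a loose form of the site of C/EBP (a factor of myeloid genes), searched on both strands with no match overlapping another.
S100a8, chr3:90668821-90669070, plus strand: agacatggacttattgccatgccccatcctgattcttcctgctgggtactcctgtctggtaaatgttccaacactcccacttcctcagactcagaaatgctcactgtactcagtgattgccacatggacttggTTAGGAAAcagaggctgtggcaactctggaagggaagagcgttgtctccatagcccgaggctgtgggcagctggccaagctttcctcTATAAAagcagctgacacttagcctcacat
S100a9, chr3:90695722-90695971, minus strand: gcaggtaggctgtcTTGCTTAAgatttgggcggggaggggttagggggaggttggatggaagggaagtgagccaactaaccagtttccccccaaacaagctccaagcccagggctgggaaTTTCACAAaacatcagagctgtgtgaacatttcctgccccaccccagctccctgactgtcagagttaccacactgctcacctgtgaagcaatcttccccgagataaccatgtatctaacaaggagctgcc
S100a4, chr3:90603520-90603769, plus strand: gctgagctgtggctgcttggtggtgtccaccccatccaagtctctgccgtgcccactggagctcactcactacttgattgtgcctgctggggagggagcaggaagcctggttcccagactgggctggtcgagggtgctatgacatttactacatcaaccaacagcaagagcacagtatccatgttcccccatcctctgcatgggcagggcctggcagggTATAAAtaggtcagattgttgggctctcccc
S100a6, chr3:90612644-90612893, plus strand: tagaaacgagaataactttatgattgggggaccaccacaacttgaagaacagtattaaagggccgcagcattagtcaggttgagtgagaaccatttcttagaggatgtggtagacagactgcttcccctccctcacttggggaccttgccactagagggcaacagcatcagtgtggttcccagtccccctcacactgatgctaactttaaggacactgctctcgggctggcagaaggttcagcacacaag
TATAAA was found once upstream of S100a8, once upstream of S100a4 and in no other of the 7 windows. It is in 12.4% of all 32851 promoters in the table over the same 250 bases. TTNNGNAA was found once upstream of S100a8, 2 times upstream of S100a9 and in no other of the 7. It is in 36.8% of all promoters. GCGTG, the core of the element that AhR binds, is in none of the 4 windows shown, nor in those of S100a1 and S100a11. The window of S100a13 holds 1, and 28.2% of all promoters hold at least 1. These matches describe letters only.

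The values are log2 levels as the authors deposited them, after RMA per the submitters' processing notes, and array medians lay between 4.81 and 4.91. A level of 1 probe set cannot be set against that of another, so each gene is compared with itself across arrays. The number of arrays limits the precision. Of 6 AhR target genes examined as a check of the labels, 5 in the thymocytes and 6 in the emigrants had the TCDD arrays higher with no overlap, against 9.7% and 13.7% of all probe sets. Emigrants oil 1, whose Treatment field names TCDD, was thus below both emigrants TCDD arrays for all 6. Its Cyp1b1 level was 4.69, against 6.87 and 8.36 in emigrants TCDD. Emigrants oil 2, whose field reads Dioxane 2, had Cyp1b1 at 6.25, nearer to emigrants TCDD 1. Both thymocytes oil arrays had it lower, at 4.62 and 5.04. Cyp1b1 was the 1 target of the 6 that was higher in emigrants oil 2 than in emigrants oil 1. Of the T lineage genes, Cd3e lay between 8.09 and 8.91 over all arrays and Cd3g between 8.50 and 9.55. Of 10 T lineage and double negative thymocyte genes measured, 8 had a lower mean in the emigrants, averaged over oil and TCDD. Cd3e was 1 of the 2 with a higher mean. All 4 emigrant arrays lay below all 4 thymocyte arrays for 5 of the 10, against 5.64% of all probe sets. Ptcra, the pre-T cell receptor chain of early thymocytes, lay between 8.83 and 9.45 in the thymocytes and between 5.08 and 7.00 in the emigrants. Emigrants oil 2 stood apart, with Ptcra at 7.00 and the recombinase gene Rag1 at 9.81, within the thymocyte range of 9.33 to 10.21, where the other emigrant arrays had Rag1 at 3.89, 5.10 and 3.75. The B cell genes Cd79a, Pax5 and Ebf1 were below the median of every array, while Ms4a1, which encodes the B cell antigen CD20, lay between 6.96 and 8.93 in the thymocytes and between 4.57 and 5.36 in the emigrants.

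Emigrant and thymocyte cells were compared to see which genes differ once cells are in the spleen. All 5 lymphocyte S100 genes (S100a1, S100a4, S100a6, S100a10 and S100a13) were higher in the emigrant arrays, under oil and under TCDD, with no overlap between the arrays compared. Under oil 5 of 5 had both emigrant arrays above both thymocyte arrays, as had 19.9% of all probe sets, and under TCDD it was again 5 of 5, against 20.6%. S100a10 had the largest of these differences under oil and S100a6 under TCDD. For S100a1 the counts use the brighter probe set, and its second one overlapped between the sources in both comparisons. S100a8 and S100a9 had lower means in the emigrants, with wide spread between arrays. By limma's test with Benjamini-Hochberg adjustment over all probe sets, 0 of the 9 S100 probe sets passed in either comparison, and 0% of all probe sets. At an unadjusted p under 0.05 there were 5 S100 probe sets in each, against 8.95% of all probe sets under oil and 7.44% under TCDD. In each, both S100a10 probe sets were among them and S100a4 was not. The median difference of the 5 genes was 1.23 on the log2 scale under oil and 1.08 under TCDD, where the medians of all probe sets were 0.01 and 0.04. Without emigrants oil 2, the array with thymocyte-like Rag1, the differences under oil were 2.50 for S100a10, 1.44 for S100a6, 0.53 for S100a4, 0.70 for S100a13 and 0.44 for S100a1. Some markers of B cells and antigen-presenting cells moved with the source as well. Ms4a1, Cd79b and the MHC class II gene H2-Aa had all 4 thymocyte arrays above all 4 emigrant arrays, against 5.64% of all probe sets. Their averaged differences were -2.72, -1.60 and -1.71. Of the 6 B cell markers measured, 4 had a lower and 2 a higher averaged mean in the emigrants. Of the 4 dendritic cell markers measured, only H2-Aa had a lower averaged mean there, and 3 had a higher one. The mean log2 level of the 6 B cell markers measured ranged from 4.97 to 5.65 in the thymocytes and from 4.30 to 4.58 in the emigrants, and their part in the S100 differences was not tested. In bulk samples, fewer cells of a type and less RNA per cell cannot be told apart.

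**Figure D1:**
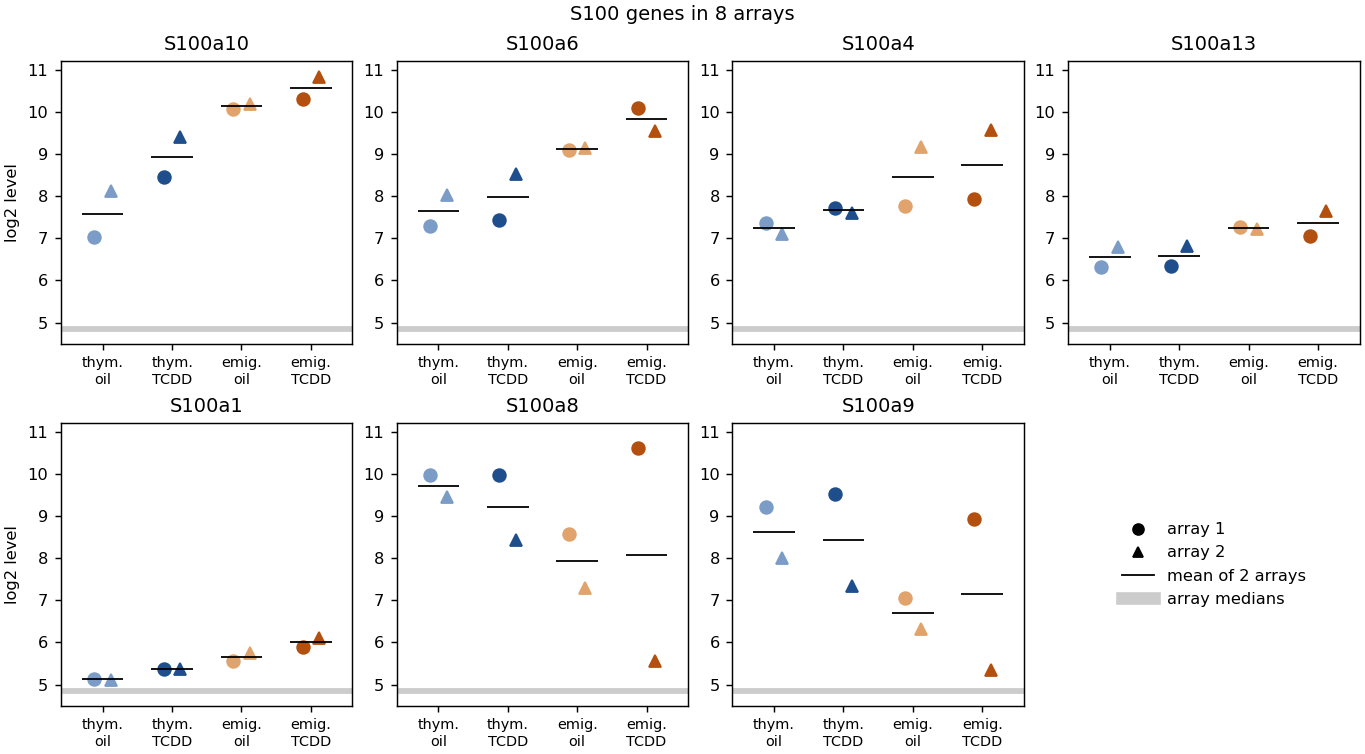
Log2 level of 7 S100 genes (brightest probe set of each) in the 8 arrays, by group; circles are array 1, triangles array 2, black lines the group mean, and the grey band the range of the array medians. S100a10 runs from 7.03 in a thymocyte oil array to 10.83 in an emigrant TCDD array, while S100a8 in emigrants TCDD lies at 10.61 and 5.56.

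S100a10, the annexin A2 partner, was at 7.03 and 8.12 in the thymocytes oil arrays, 8.44 and 9.40 in thymocytes TCDD, 10.07 and 10.19 in emigrants oil, and 10.30 and 10.83 in emigrants TCDD. No 2 neighbouring groups in this order overlapped. Under oil S100a10 was 5.88-fold higher in the emigrants (log2 difference 2.56, SE 0.453, n = 2 against 2, limma adjusted p = 0.21). Under TCDD it was 3.13-fold higher (log2 difference 1.65, SE 0.453, limma adjusted p = 0.478). Its second probe set, a kind whose probes can cross-hybridise with other transcripts, lay between 7.54 and 7.58 in thymocytes oil, at 8.00 and 8.66 in thymocytes TCDD, and between 9.23 and 9.45 in all 4 emigrant arrays. This probe set differed by 1.77 under oil and 1.09 under TCDD, in the same direction as the brighter one.

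S100a6, the Cacybp-binding member, was at 7.30 and 8.02 in thymocytes oil, 7.43 and 8.52 in thymocytes TCDD, 9.10 and 9.14 in emigrants oil, and 10.09 and 9.54 in emigrants TCDD. The 2 thymocyte groups overlapped, and both emigrant groups lay above them and apart from each other. The emigrants were 2.76-fold higher under oil (log2 difference 1.46, SE 0.418, limma adjusted p = 0.365) and 3.59-fold higher under TCDD (log2 difference 1.84, limma adjusted p = 0.402).

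S100a4, the myosin-binding member, was at 7.36 and 7.11 in thymocytes oil, 7.72 and 7.60 in thymocytes TCDD, 7.77 and 9.16 in emigrants oil, and 7.92 and 9.56 in emigrants TCDD. The emigrant arrays numbered 2 carried most of the difference, and those numbered 1 were only just above the thymocyte arrays. The log2 difference was 1.23 under oil (SE 0.625, limma adjusted p = 0.671) and 1.08 under TCDD (limma adjusted p = 0.778). Without emigrants oil 2 the difference under oil was 0.53, without emigrants oil 1 it was 1.92, without emigrants TCDD 2 the difference under TCDD was 0.26, and without emigrants TCDD 1 it was 1.90. Cd68 and Adgre1, genes of macrophages, were also higher in the emigrant arrays numbered 2 (Cd68 at 7.14 and 7.33 against 4.88 and 5.43, Adgre1 at 7.36 and 7.04 against 5.61 and 6.24). Of the 10 monocyte and macrophage markers measured, 9 were higher in array 2 of emigrants oil and 8 in array 2 of emigrants TCDD. In the thymocytes 7 of the 10 were also higher in array 2 under oil and 8 under TCDD. There S100a4 was higher in array 1. The mean log2 level of the list was 6.13 and 7.05 in emigrants oil, 6.66 and 7.27 in emigrants TCDD, 6.10 and 6.43 in thymocytes oil and 5.81 and 6.32 in thymocytes TCDD. None of the 10 was below the median of every array. Csf1r and Ccr2 had averaged differences of 1.18 and 1.67. These receptors of monocytes and macrophages had all 4 emigrant arrays above all 4 thymocyte arrays, against 6.12% of all probe sets. The part of these cells in the S100 differences was not tested.

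S100a13 was at 6.31 and 6.80 in thymocytes oil, 6.34 and 6.82 in thymocytes TCDD, 7.26 and 7.21 in emigrants oil, and 7.06 and 7.65 in emigrants TCDD. It separated the sources but not the treatments. The emigrants were 1.60-fold higher under oil (log2 difference 0.68, limma adjusted p = 0.557) and 1.72-fold higher under TCDD (log2 difference 0.78, limma adjusted p = 0.621). S100a1 was at 5.14 and 5.11 in thymocytes oil, 5.36 and 5.36 in thymocytes TCDD, 5.56 and 5.75 in emigrants oil, and 5.90 and 6.10 in emigrants TCDD. It lay above the median of every array, with 55.8% of probe sets below it in thymocytes oil 2 and 73.2% in emigrants TCDD 2. Its differences were 0.53 under oil and 0.64 under TCDD. The second S100a1 probe set was below the array medians in all 4 groups and differed by 0.02 and 0.24.

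The group means of all 5 lymphocyte S100 genes were in the same order, thymocytes oil lowest, then thymocytes TCDD, emigrants oil and emigrants TCDD, an order held by 10.6% of all probe sets. For S100a10 and S100a1 no neighbouring groups overlapped, which was so for 0.168% of all probe sets. Their second probe sets did not hold this: that of S100a10 kept the order of the means but overlapped between the emigrant groups, and that of S100a1 did not keep the order. S100a6 and S100a13 overlapped between oil and TCDD in the thymocytes, S100a13 also in the emigrants, and S100a4 between the 2 emigrant groups. This order was noticed in the data and is given as a description.

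Averaging the source difference over oil and TCDD, with 4 arrays against 4, is a comparison added after the data were seen. All 5 genes kept all 4 emigrant arrays above all 4 thymocyte arrays, against 6.12% of all probe sets, and neither myeloid gene lay wholly lower, as 5.64% did. The averaged log2 difference was 2.10 for S100a10 (SE 0.321, 95% interval 1.32 to 2.88, limma adjusted p = 0.0642), 1.65 for S100a6 (0.94 to 2.37, limma adjusted p = 0.0875) and 1.15 for S100a4 (0.08 to 2.23). It was 0.73 for S100a13 (0.25 to 1.21) and 0.59 for S100a1 (0.35 to 0.83). The second S100a1 probe set, below the array medians in all 4 groups, differed by 0.13 (-0.15 to 0.40), with overlap between the sources. The second S100a10 probe set differed by 1.43 (limma adjusted p = 0.0614). None of the 9 probe sets passed the threshold of 0.05, which 14 probe sets of the array (0.0619%) did. The S100a10 probe sets lay close to it and passed under some alternatives, which are given in the closing section.

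**Figure D2:**
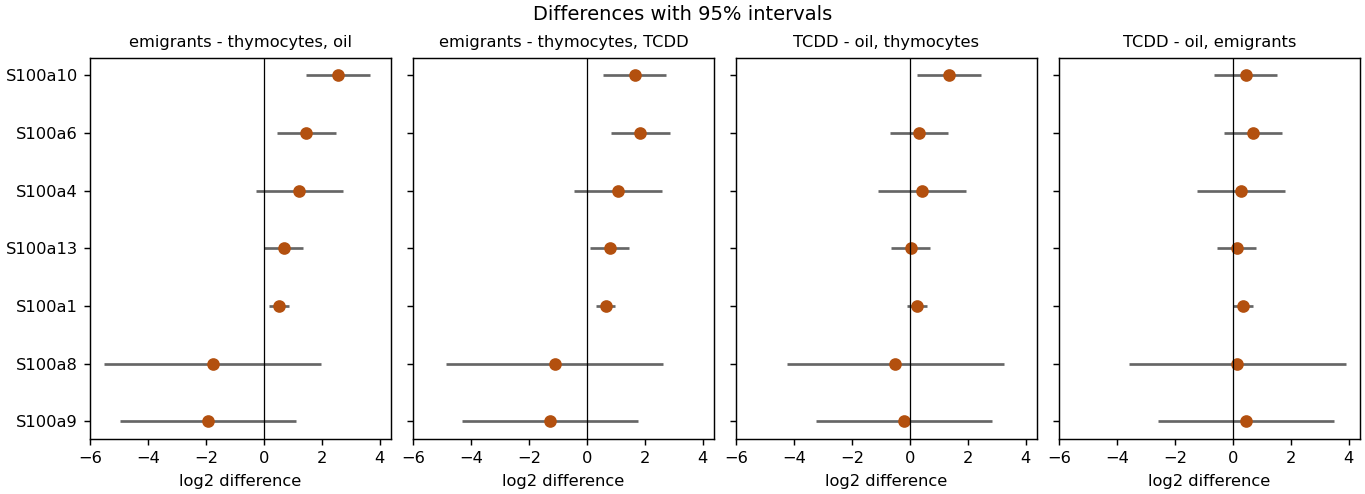
Log2 differences of 7 S100 genes with 95% intervals from limma (n = 2 against 2 arrays in each panel), for emigrants minus thymocytes under oil and under TCDD and for TCDD minus oil in each source. The points of the 5 lymphocyte genes lie above 0 in both source panels, where the intervals of S100a4 include 0, and the intervals of S100a8 and S100a9 include 0 in all 4 panels.

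TCDD and oil were compared to see which genes respond to the AhR ligand. In the thymocytes S100a10 had the largest S100 difference, 2.54-fold higher after TCDD (log2 difference 1.35, SE 0.453, 95% interval 0.25 to 2.45, limma adjusted p = 1). The arrays went from 7.03 to 8.44 for number 1 and from 8.12 to 9.40 for number 2, and the groups did not overlap. The second S100a10 probe set differed by 0.78 (interval 0.22 to 1.33). Without thymocytes oil 1 the difference of the brighter probe set was 0.80 and without thymocytes TCDD 2 it was 0.87. Both TCDD arrays also lay above both oil arrays for S100a4 (log2 difference 0.42) and S100a1 (0.24). This made 3 of the 5 lymphocyte genes, against 9.7% of all probe sets, and none of the 9 probe sets passed limma's adjusted threshold, nor did any other (0%). At an unadjusted p under 0.05 there were 2, both of S100a10, against 1.38% of all probe sets. S100a6 (0.32) and S100a13 (0.02) overlapped between oil and TCDD.

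In the emigrants S100a6, S100a10 and S100a1 had both TCDD arrays above both oil arrays, again 3 of 5 genes, against 13.7% of all probe sets. The log2 differences were 0.69 for S100a6 (95% interval -0.32 to 1.71), 0.44 for S100a10 (-0.66 to 1.54) and 0.35 for S100a1 (0.01 to 0.69). The second S100a10 probe set overlapped between oil and TCDD here and differed by 0.10. Leaving out emigrants TCDD 2 gave an S100a10 difference of 0.17. Leaving out emigrants TCDD 1 gave 0.70 for S100a10 and 0.42 for S100a6. S100a4 differed by 0.28 and S100a13 by 0.13, both with overlap. The limma test called 0 of the 9 probe sets after adjustment, and 0% of all probe sets. At an unadjusted p under 0.05 there was 1, of S100a1, against 1.21%. The TCDD difference of S100a10 was smaller in the emigrants than in the thymocytes by 0.91, but the interval of this interaction reached from -2.46 to 0.64 (limma adjusted p = 1). It was -0.37 without thymocytes oil 1, -0.43 without thymocytes TCDD 2, -1.39 without thymocytes TCDD 1 and -1.45 without thymocytes oil 2. The limma interaction called 0 of the 9 probe sets, and 0% of all probe sets, and at an unadjusted p under 0.05 it called 0 of 9 against 1.28%. When the Treatment field of emigrants oil 1 replaced its title, the S100a4 difference in the emigrants was -0.74. The S100a4 difference in the emigrants was also -0.54 without emigrants TCDD 2, -0.42 without emigrants oil 1, 0.98 without emigrants oil 2 and 1.10 without emigrants TCDD 1.

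Genes of S100 binding partners and receptors did not share one pattern. Of 18 measured, 13 had a higher and 5 a lower mean in the emigrants averaged over oil and TCDD, with a median log2 difference of 0.16 against 0.03 over all probe sets. Ahnak, the scaffold that binds S100a10 and annexin A2, was the 1 partner gene that passed the threshold, in the added comparison of 4 arrays against 4. It lay between 8.46 and 9.08 in the thymocytes and between 10.62 and 11.12 in the emigrants, 4.94-fold higher (log2 difference 2.30, SE 0.171, limma adjusted p = 0.0278). No probe set of the array passed in this comparison when any 1 thymocyte array or emigrants TCDD 2 was left out. Anxa2, which encodes annexin A2 itself, was at 9.42, 9.17, 9.40 and 9.41 in the thymocytes and at 9.20, 8.44, 9.16 and 7.61 in the emigrants. Its mean was thus lower where that of S100a10 was higher, with overlap between the sources. Cacybp lay between 9.58 and 10.21 in the thymocytes and between 8.60 and 9.39 in the emigrants (log2 difference -0.93), opposite to S100a6. The annexin genes Anxa1 and Anxa5 had averaged differences of 0.38 and 0.58, and Myh9, the heavy chain of the myosin that S100a4 binds, of 0.20, all with overlap between the sources. Itgb2, the integrin chain of leukocytes, and Cd36, a scavenger receptor that binds calprotectin, had averaged differences of 1.13 and 1.43. Both had all 4 emigrant arrays above all 4 thymocyte arrays, as had 6.12% of all probe sets. Cd36 was dim, below the array median in all 4 thymocyte arrays, in emigrants oil 1 and in emigrants TCDD 1. Its highest level, 6.71, was in emigrants oil 2. Tlr4 and Ager, the calprotectin receptors, were below the median of every array.

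**Figure D3:**
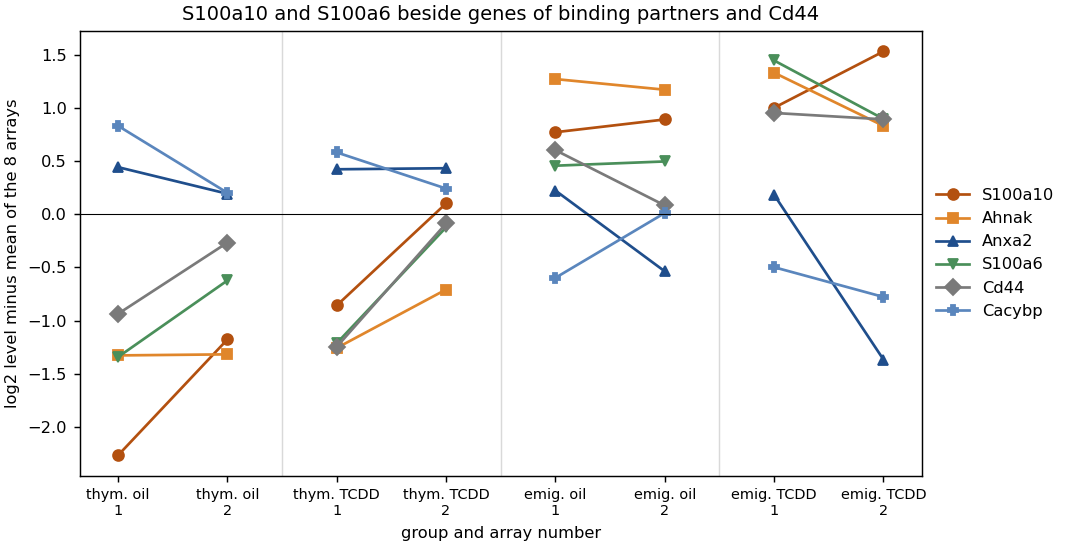
Log2 level minus each gene's mean over the 8 arrays for S100a10, S100a6, Ahnak, Anxa2, Cacybp and Cd44; lines join the 2 arrays of a group. Ahnak, S100a10, S100a6 and Cd44 are high in the emigrants, and Cacybp is high in the thymocytes.

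Likeness was measured as the root mean square difference of centred log2 levels over the 8 arrays, across 12392 other genes. The 3 genes most like S100a6 were Hcst (0.27), Ank (0.28) and Cd44 (0.31), where S100a6 itself varied by 0.94 around its mean. Cd44, the hyaluronan receptor that marks early double negative and memory T cells, lay between 7.21 and 8.37 in the thymocytes and between 8.54 and 9.41 in the emigrants. For S100a10 they were Ltb, which encodes lymphotoxin beta (0.37), Vsir (0.40) and Mfsd6 (0.41), and S100a6 was the tenth nearest at 0.53. For S100a4 they were Fnbp1 (0.20), Selenop (0.21) and Ltb4r1 (0.24). Of 12 effector and memory lymphocyte genes measured, 9 had a higher mean in the emigrants, and 5 (Cd44, Ccl5, Il2rb, Cxcr3 and Il18r1) had all 4 emigrant arrays above all 4 thymocyte arrays, against 6.12% of all probe sets. The NK cell list had a median difference of 1.94 under oil and 0.65 under TCDD, with a higher mean in the emigrants for 6 of 6 genes in both. The arrays did not overlap for 5 of the 6 under oil and 2 under TCDD, against 19.9% and 20.6% of all probe sets. Ncr1 differed by only 0.0067 under oil and stayed near the array medians (4.72 to 5.23). The mean log2 level of the NK cell list was 5.82 and 6.07 in thymocytes oil and 5.88 and 6.53 in thymocytes TCDD. It was 7.78 and 7.33 in emigrants oil and 7.22 and 6.48 in emigrants TCDD. None of the 6 genes was below the median of every array. The part of these cells in the S100 differences was not tested.

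S100a8 and S100a9 followed another pattern, with the widest spread between arrays of a group among the S100 genes in emigrants TCDD. S100a8 was at 9.96 and 9.45 in thymocytes oil, 9.98 and 8.43 in thymocytes TCDD, 8.58 and 7.29 in emigrants oil, and 10.61 and 5.56 in emigrants TCDD. S100a9 was at 9.22 and 8.01, 9.52 and 7.33, 7.06 and 6.32, and 8.93 and 5.35 in the same order. The highest and the lowest S100a8 array were thus both in emigrants TCDD, where 98.7% of probe sets lay below S100a8 in array 1 and 63.9% in array 2. In all 4 groups the array numbered 1 was above the array numbered 2 for both genes, by 0.51 to 5.06 for S100a8 and 0.74 to 3.57 for S100a9, as was so for 7.84% of all probe sets. S100a10 went the other way, lower in array 1 in all 4 groups, as did 10.1% of all probe sets, though its second probe set was higher in array 1 of emigrants oil (9.42 against 9.23). The labels do not say what the numbers stand for.

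Under oil both S100a8 and S100a9 were lower in both emigrant arrays than in both thymocyte arrays, against 18.8% of all probe sets. The log2 difference was -1.77 for S100a8 (95% interval -5.53 to 1.98, limma adjusted p = 0.814) and -1.93 for S100a9 (-4.97 to 1.12, limma adjusted p = 0.752). Under TCDD the differences were -1.12 and -1.28, the sources overlapped, and neither gene counted among the 15.1% of probe sets without overlap in that direction. Without emigrants TCDD 2 the S100a8 difference under TCDD was 1.41 and that of S100a9 was 0.50. Without emigrants TCDD 1 they were -3.65 and -3.07. TCDD minus oil gave -0.51 and -0.19 in the thymocytes, and 0.15 and 0.45 in the emigrants, all with overlap. Within number 1 the emigrant S100a8 level was 2.04 higher after TCDD, and within number 2 it was 1.74 lower (a difference of -1.74).

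Part of the neutrophil marker list varied between arrays as S100a8 and S100a9 did. The gene most like S100a8 over the 8 arrays was S100a9 (root mean square difference 0.49, where S100a8 varied by 1.56 around its mean), followed by Ifitm6 (0.55) and Lcn2 (0.56), which encodes a neutrophil granule protein. For S100a9 the nearest were Ifitm6 (0.39), S100a8 (0.49) and Lcn2 (0.52). Lcn2 was at 7.01 and 6.31 in thymocytes oil, 7.38 and 5.02 in thymocytes TCDD, 5.62 and 4.83 in emigrants oil, and 8.24 and 4.08 in emigrants TCDD. The mean log2 level of the 13 neutrophil markers measured was 6.64 and 6.13 in thymocytes oil, 6.53 and 5.65 in thymocytes TCDD, 5.72 and 5.58 in emigrants oil, and 7.47 and 5.55 in emigrants TCDD. Array 1 was higher than array 2 for 11 of the 13 in thymocytes oil, 13 in thymocytes TCDD, 7 in emigrants oil and 12 in emigrants TCDD, and none was below the median of every array. In emigrants oil the median of array 1 minus array 2 was thus only 0.05, where S100a8 and S100a9 were higher in array 1 by 1.28 and 0.74. Cxcr2, a chemokine receptor of neutrophils, varied little (4.60 to 5.09) and was lower in emigrants TCDD 1 than in emigrants TCDD 2, and Csf3r stayed between 6.16 and 6.57. Under oil 11 of the 13 had a lower mean in the emigrants than in the thymocytes, with a median difference of -0.82, and under TCDD 12 of the 13 had a higher mean, with a median of 0.25, opposite in sign to S100a8 and S100a9. The granule proteinase and peroxidase genes Ctsg and Mpo were at 7.87 and 8.60 in emigrants TCDD 1 and at 4.84 and 4.89 in emigrants TCDD 2. Ltf and Ngp, of the later granules, were at 7.74 and 11.38 against 5.78 and 7.72. Lyz2, the lysozyme gene of myeloid cells, was also highest in emigrants TCDD 1, at 10.06. The part of neutrophils in the S100a8 and S100a9 values was not tested.

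**Figure D4:**
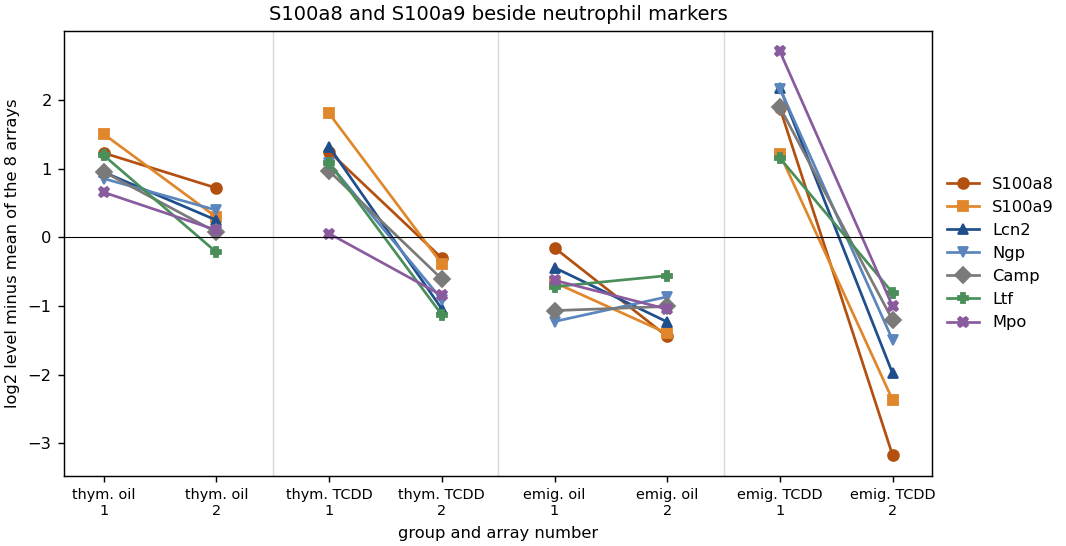
Log2 level minus each gene's mean over the 8 arrays for S100a8, S100a9 and 5 of the 13 neutrophil markers measured. Lines join the 2 arrays of a group. All 7 genes are higher in emigrants TCDD 1 than in emigrants TCDD 2, where S100a8 lies at 10.61 and 5.56. Of the 13 markers 12 are higher in that array, and Cxcr2, not shown, is lower. In emigrants oil, Ltf, Camp and Ngp are lower in array 1 than in array 2, unlike the other genes shown.

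The 6 other S100 genes with probe sets of their own (S100a3, S100a5, S100a14, S100a16, S100b and S100g) showed little. For S100a3, S100a14, S100b and S100g every array was below its median. S100a5, which lies between S100a4 and S100a6 on the chromosome, was between 4.31 and 4.88, near the array medians, and differed by 0.11 between the sources where S100a4 differed by 1.15 and S100a6 by 1.65. S100a16 was between 6.65 and 7.03 and differed by -0.15. None of the 6 passed the limma threshold in any comparison, and their median averaged source difference was -0.01.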

How the data were processed

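The authors deposited log2 values per probe set from 8 Affymetrix arrays; the submitters' processing notes name RMA, its version not given, and the extract protocol in the labels names an RNA amplification before hybridisation. RMA makes array distributions alike, which hides a shift shared by most genes, and it compresses differences at low signal. Of 22690 rows, 64 array controls were left out. Symbols came from the platform annotation, updated by gene identifier through RefSeq (20380 probe sets with 1 symbol, 691 with several, 1555 with none). All 22626 remaining probe sets were fitted with limma 3.58.1 in R 4.3.3 (group means, eBayes, 4 residual degrees of freedom, two-sided, Benjamini-Hochberg, threshold 0.05); intervals are 95%. No filter on dim probe sets was used. No fold is given where both arrays of a group lay below their medians. Lists are described by counts and medians. The code was tested on simulated arrays. The members, the lists and the rule for named genes (every member probe set, fixed partner and marker lists, the 3 genes most like each of 5 members) were chosen with earlier results of these data known. Partner genes and markers named are those a result turns on, chosen after their values were seen. The motifs other than GCGTG were also added then. Alternatives were normalization, centring, a filter on dim probe sets, 1 value per gene, the prior, replicate blocks, the arrays fitted, the Treatment field and leaving out each array.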

Additional observations from a re-analysis of the deposited data

How the results depend on the processing

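In the 5 planned comparisons, 0 S100 probe sets passed limma's adjusted threshold under every alternative run. In the averaged source comparison the count went from 0 to 1 after repeated quantile normalization, 2 among the brighter probe sets only, 1 with the mean of the probe sets of a gene, 2 with a replicate block over all arrays and 1 with the Treatment field, in each case S100a10. Over all probe sets that comparison gave 14 calls, and 35, 109, 69, 226 and 88 under these alternatives, 8 with the trended prior, and 0 to 76 when 1 array was left out. Under TCDD the source comparison gave 0 calls, 16 with the Treatment field and 14 without emigrants TCDD 1. The Treatment field turned S100a4 in the emigrants (TCDD minus oil) to -0.74 and the S100a1 interaction to -0.13. The dim S100a1 probe set, at 0.02 between sources under oil, turned to -0.0071 (quantile normalization), -0.026 (centring) and -0.050 (Treatment field).

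Leaving out 1 array turned the sign of 18 of the 54 S100 differences. For TCDD minus oil in thymocytes the ranges were -0.12 to 0.10 for the dim S100a1 probe set, -0.23 to 0.86 for S100a6, -1.28 to 0.27 for S100a8, -1.28 to 0.90 for S100a9 and -0.22 to 0.27 for S100a13. In emigrants they were -0.54 to 1.10 for S100a4, -2.38 to 2.68 for S100a8, -1.33 to 2.24 for S100a9, -0.0019 to 0.19 for the second S100a10 probe set and -0.17 to 0.42 for S100a13. Between sources they were -0.050 to 0.084 for the dim S100a1 probe set under oil, and under TCDD -3.65 to 1.41 for S100a8 and -3.07 to 0.50 for S100a9. For the interaction they were -0.97 to 0.68 for S100a4, -0.17 to 0.92 for S100a6, -1.87 to 3.18 for S100a8, -1.14 to 2.43 for S100a9 and -0.19 to 0.39 for S100a13. The causes were not tested.

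The array numbers are not stated to mark pairs. Deviations of same-numbered arrays correlated at 0.73 in thymocytes, 0.52 in emigrants, 0.12 across sources under oil and -0.15 under TCDD. With a replicate block within each source, the TCDD comparisons and the interaction called 0 S100 probe sets. Of all 22626 probe sets, limma then called 1 in thymocytes, 0 in emigrants and 0 for the interaction. At an unadjusted p under 0.05 the counts over all probe sets were 1280, 1274 and 1334, against 313, 273 and 289 without the block. That block was not fitted for the source comparisons, since it lies within a source. The added comparison was chosen after seeing the data. The number of arrays, 2 in each group, limits every interval.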
